A study of Mus musculus with 6 samples.

Results

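The genes described here are 10 genes of intraepithelial lymphocytes, the T cells and related cytotoxic cells that sit between gut epithelial cells. Colon epithelium was read from wild-type mice and from mice with a gut epithelial (vil-Cre) deletion of the beta-catenin co-activators BCL9 and BCL9L. The 10 genes are Cd3e, Cd3g, Zap70, Cd8a, Itgae, Il2rb, Gzma, Gzmb, Nkg7 and Cd160. They were selected on measured differences between these same arrays, so their knockout values against wild type are a description with no test. They were read through all 21 probe sets (groups of short probes on an Affymetrix Mouse Genome 430 2.0 array) whose annotation gives 1 symbol among these 10, of 45101 probe sets in the table, and the table covered 18193 genes in this way. The 5 genes Zap70, Cd8a, Itgae, Il2rb and Cd160 have more than 1 probe set, and the one with the highest mean over the 6 arrays stands for the gene unless another is named.

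There were 6 arrays. Knockouts 1, 2 and 3 are vil-Cre-Bcl9-/-/Bcl9l-/- mice, pooled from 3, 2 and 2 animals, and wild types 4, 5 and 6 are pools of 3 animals each. All mice were 12 weeks old and of a mixed 129SvEv/C57BL/6/DBA/2 strain. The vil-Cre transgene uses the promoter of villin, a gene of the gut epithelium and not of lymphocytes. The deletion is thus directed at epithelial cells, and whether the lymphocytes kept both genes was not measured. The labels name vil-Cre for the knockouts alone, so the effects of Cre and of losing both co-activators cannot be told apart. The colon was opened and soaked in 3 mM EDTA with 0.05 mM DTT for 1.5 to 2 hours, epithelium was shaken off and pelleted with no sorting, and 30 ng of RNA was amplified. The lymphocytes were therefore measured as they came off with the epithelium, and in such bulk RNA fewer lymphocytes and less RNA per lymphocyte cannot be told apart.

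Intraepithelial lymphocytes are mostly CD8-bearing T cells. A T cell receptor with its CD3 chains detects antigen and signals through the kinase ZAP70. The integrin CD103, encoded by Itgae, binds E-cadherin on epithelial cells and keeps the lymphocytes in place, and interleukin-15 presented by epithelium sustains them through the receptor chain encoded by Il2rb. When activated they kill with granules that hold granzymes, and they carry receptors shared with natural killer cells, among them CD160.

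Values are log2 expression on the deposited scale, with array medians of 5.44 to 5.58, and differences are knockout minus wild type in log2 units. Of the 45037 probe sets tested, limma called 0 lower (0%) and 0 higher (0%) in the knockouts at an adjusted p of 0.05. The smallest adjusted p was 0.326, and 1867 probe sets lay at an unadjusted p under 0.05, 834 lower and 1033 higher. With wild type 6 left out limma called 3 probe sets, of Lrg1, Pla2g2a and Rgcc, which are none of the 10 genes and are named here after their values were seen. Of the labelled tissue, all 20 epithelial markers, Epcam and Vil1 among them, lay at the 93.5 to 99.9 percentiles of the arrays, and their median difference was -0.014. Bcl9 differed by 0.11 (SE 0.20, limma adjusted p = 0.991) and Bcl9l by 0.22 (SE 0.15, limma adjusted p = 0.991), or 0.35 without wild type 6. Dimmer probe sets differed by -0.044 for Bcl9, and by 0.15 and -0.20 for Bcl9l. Without wild type 6 those Bcl9l values were 0.025 and -0.35. The sources used here do not say whether these probes lie in the deleted parts, and so they check nothing about the genotype. Wild type 6 stood apart from the other 5 arrays in markers of some cell types, B cells most of all and stroma too. It did not in the natural killer type receptors. The level of the 21 measured B cell markers, as the median over genes of each value minus the gene's 6-array mean, was 1.96 in wild type 6, -0.66 and -0.27 in the other wild types and -0.49 to -0.38 in the knockouts. For the 10 genes, and for other genes where that array decides the value, differences are given with and without it.

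All 10 genes and all 21 probe sets had lower means in the knockouts, a direction that the choice of genes sets. By their profile over the arrays the genes fell in 3 kinds, a division made after their values were seen. Cd3e, Cd3g and Cd8a, which encode the antigen-recognition apparatus, were high mainly in wild type 6. The granzyme genes Gzma and Gzmb spread widely among the knockouts themselves. Itgae, Il2rb, Nkg7 and Zap70 had all 3 knockouts below all 3 wild types, an order that leaving out an array cannot undo. That is 4 of the 10, where 878 of all 18193 genes (4.83%) had this order and 999 (5.49%) the opposite one, but since the genes were chosen on this contrast nothing is read from the difference. Cd160 lay between these, highest in wild type 6 and lowest in knockout 2.

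**Figure D1:**
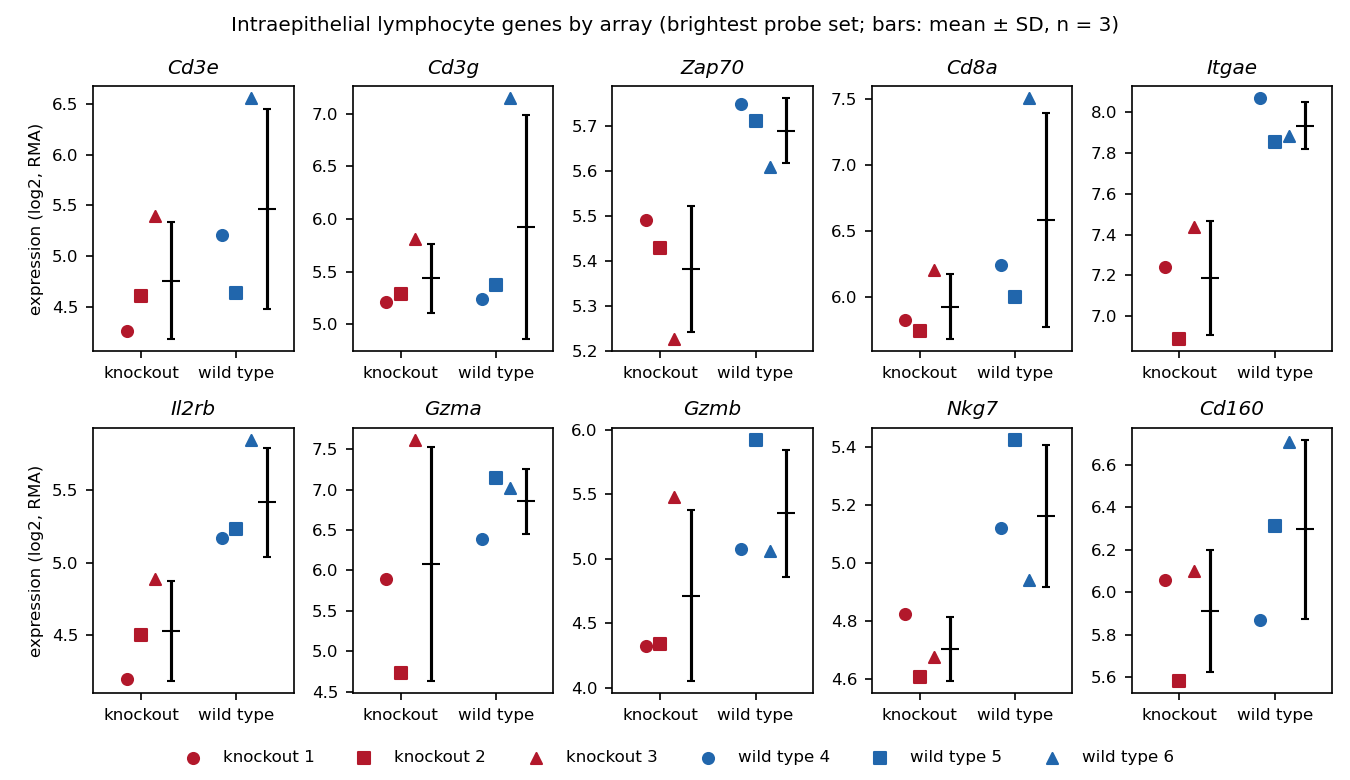
Expression (log2) of the 10 genes in each array, with 1 panel a gene; points are arrays, marked by replicate, and bars are mean and SD of 3 arrays. Groups overlap for Cd3e, Cd3g, Cd8a, Gzma, Gzmb and Cd160 and do not for Itgae, Il2rb, Nkg7 and Zap70.

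The CD3 chains epsilon and gamma, encoded by Cd3e and Cd3g, are invariant parts of every T cell receptor complex. Their genes lie close together on chromosome 9 of the mouse, and the 250 bases before each start site are shown because both genes were highest in wild type 6. Sequences here are from RefSeq, build GRCm38.p6, in which 8 of the 10 genes had an entry. Capitals mark matches to 5 short motifs searched on both strands, namely RUNX (TGTGGT), T-box (GGTGTGA), ETS (AGGAAGT), AP-1 (TGAGTCA) and the CRE half-site (TGACGT). The motifs were chosen with the sequences in view, and a match is a description of letters and not a site of binding.
Cd3e (chr9:45009612-45009861, minus strand): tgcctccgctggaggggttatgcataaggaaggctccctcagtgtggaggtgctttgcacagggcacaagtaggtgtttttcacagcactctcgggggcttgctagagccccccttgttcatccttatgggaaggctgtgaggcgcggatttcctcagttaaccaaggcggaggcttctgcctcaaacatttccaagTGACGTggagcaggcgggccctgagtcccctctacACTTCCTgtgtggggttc
Cd3g (chr9:44980432-44980681, minus strand): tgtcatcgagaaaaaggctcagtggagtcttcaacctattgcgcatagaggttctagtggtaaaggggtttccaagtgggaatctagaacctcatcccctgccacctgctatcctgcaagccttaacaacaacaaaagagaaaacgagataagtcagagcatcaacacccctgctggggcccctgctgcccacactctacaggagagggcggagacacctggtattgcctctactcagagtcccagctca
The Cd3e window held the ETS motif on the minus strand, starting 18 bases before the start site, and the CRE half-site on the plus strand 53 bases before it. In the Cd3g window none of the 5 was found. Over all 32851 windows of this length, 7.69% held the ETS motif and 6.47% the CRE half-site.

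Cd3e read 4.26, 4.61 and 5.39 in knockouts 1, 2 and 3 and 5.21, 4.63 and 6.56 in wild types 4, 5 and 6. The groups overlapped: wild type 5 lay beside knockout 2, and knockout 3 exceeded wild types 4 and 5. Group means were 4.75 ± 0.58 for knockout and 5.46 ± 0.99 for wild type (SD, n = 3 each), with a difference of -0.71 (SE 0.52), or -0.16 without wild type 6.

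Cd3g read 5.21, 5.29 and 5.81 in the knockouts and 5.24, 5.38 and 7.15 in wild type. Apart from wild type 6 the highest array was a knockout. The difference of -0.49 (SE 0.50) became 0.13 without wild type 6, the one change of sign among the 10 genes when that array was left out. Wild type 6 exceeded the mean of the other 5 arrays by 1.74 for Cd3e and by 1.76 for Cd3g.

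Cd8a encodes the alpha chain of the CD8 coreceptor, which in these lymphocytes often pairs with itself. It read 5.82, 5.74 and 6.21 in the knockouts and 6.24, 6.00 and 7.51 in wild type. Knockout 3 exceeded wild type 5, so the groups overlapped, and wild type 6 exceeded the mean of the other 5 arrays by 1.51. Group means were 5.92 ± 0.25 for knockout and 6.58 ± 0.81 for wild type (SD, n = 3 each), with a difference of -0.66 (SE 0.39), or -0.20 without wild type 6. The 4 dimmer Cd8a probe sets differed by -0.35 to -0.22, or by -0.23 to -0.047 without wild type 6, and their groups overlapped too.

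Zap70 encodes the kinase that docks on the phosphorylated CD3 and zeta chains. The probe set standing for the gene read 5.49, 5.43 and 5.23 in the knockouts and 5.75, 5.71 and 5.61 in wild type, with a gap of 0.12 between the highest knockout and the lowest wild type. Its highest array was wild type 4. The difference was -0.31 (SE 0.12), and without wild type 6 it was -0.35. Its other 2 probe sets overlapped between groups and differed by -0.058 and -0.14, or by 0.011 and -0.12 without wild type 6, which was the highest array of the first of them (5.70). The probe set standing for the gene is of a type (name ending in _x_at) whose probes can also match other transcripts.

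Genes that work beside these were read from a list of T cell receptor and proximal signalling genes, 22 of 32 measured. limma called 0 of them in either direction, and 0 lay at an unadjusted p under 0.05. Their median difference was -0.28, with 20 below 0, against a median of 0.0096 over all 18193 genes, of which 8701 were below 0. Leaving out wild type 6, the median was -0.15 for the list and -0.023 for all genes. Wild type 6 held the highest value for 16 of the 22 genes, against 2333 of all 18193.

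Ptprc, the phosphatase CD45 carried by all leukocytes, read 6.63, 6.61 and 6.84 in the knockouts and 6.93, 7.28 and 10.55 in wild type. Wild type 6 thus lay 3.69 above the mean of the other 5 arrays, and the difference of -1.56 (SE 0.89, limma adjusted p = 0.991) was -0.41 without it. Gimap4, a GTPase of lymphocytes, read 8.54 in wild type 6 and 5.06 to 6.27 elsewhere, a difference of -1.40 (SE 0.64, limma adjusted p = 0.991) that was -0.62 without wild type 6. Cd3d, the delta chain of CD3, differed by -0.26 (SE 0.33, limma adjusted p = 0.991) and by 0.0064 without wild type 6. Cd247, the zeta chain, differed by 0.23 (SE 0.20, limma adjusted p = 0.991), by 0.43 without wild type 6, and by -0.18 where all its probe sets were averaged. The partner coreceptor genes Cd8b1 (-0.59, SE 0.36) and Cd4 (-0.21, SE 0.25) were both highest in wild type 6, at 4.90 and 5.73. Without that array Cd8b1 differed by -0.22, and Cd4 turned to 0.090.

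**Figure D2:**
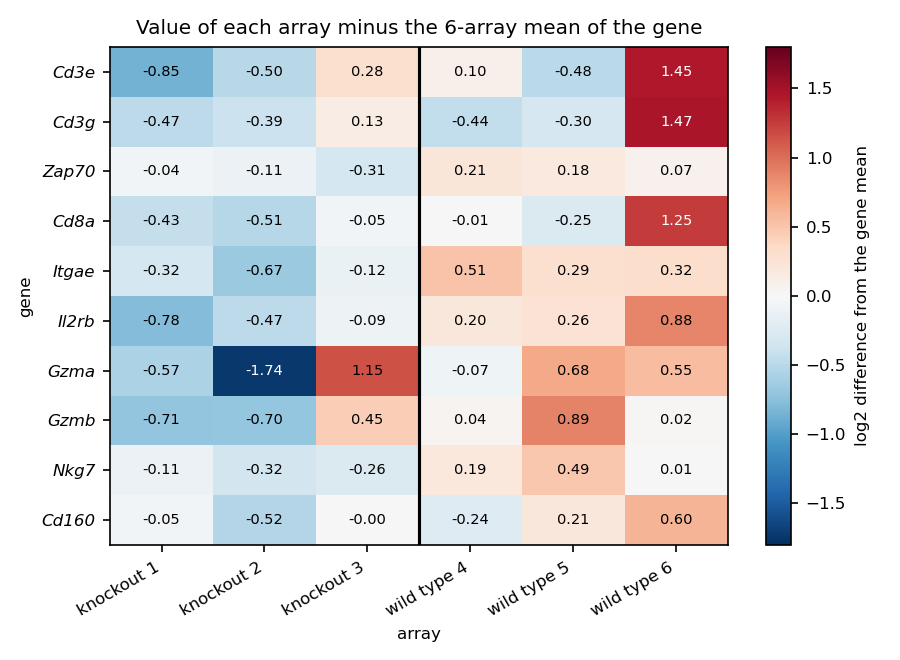
Each gene's value in each array minus its mean over the 6 arrays (log2), with genes in rows, arrays in columns and the colour scale from blue (below the gene mean) to red (above). Cd3e, Cd3g and Cd8a have their strongest red in wild type 6 (1.45, 1.47 and 1.25), and Gzma runs from -1.74 in knockout 2 to 1.15 in knockout 3.

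Itgae, the integrin chain that tethers these lymphocytes to epithelium, was among the 4 genes whose groups did not overlap. It read 7.24, 6.89 and 7.44 in the knockouts and 8.07, 7.85 and 7.88 in wild type. Every wild type exceeded every knockout, with a gap of 0.41, and wild type 6 was not the highest. Group means were 7.19 ± 0.28 for knockout and 7.93 ± 0.12 for wild type (SD, n = 3 each), with a difference of -0.74 (SE 0.17), which is 1.67-fold higher in wild type, and -0.77 without wild type 6. The second Itgae probe set did not show this: it read 6.31, 6.26 and 6.39 in the knockouts and 6.30, 6.39 and 6.28 in wild type, a difference of -0.0047 (SE 0.11). Averaging both gave -0.37. The first is of a type (name ending in _s_at) that can match transcripts of more than 1 gene, and which of the 2 reads the Itgae transcript better was not tested.

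Itgb7 encodes the integrin chain that pairs with the Itgae product. It read 6.49, 6.49 and 6.65 in the knockouts and 6.33, 6.44 and 7.89 in wild type. Only wild type 6 stood out, and the difference of -0.34 (SE 0.40, limma adjusted p = 0.991) turned to 0.16 without it. Ccr9, a gut-homing chemokine receptor, differed by -0.19 (SE 0.12, limma adjusted p = 0.991). Over the 18 measured genes of homing and residency, of 24 listed, the median was -0.21 with 14 below 0, and it was -0.024 without wild type 6, which held the highest value of 12. limma called 0 of them, with 0 at an unadjusted p under 0.05.

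Il2rb encodes the beta chain shared by the interleukin-2 and interleukin-15 receptors. It read 4.19, 4.50 and 4.88 in the knockouts and 5.17, 5.23 and 5.85 in wild type. The groups did not overlap, with a gap of 0.29, and wild type 6 was the highest array. Group means were 4.52 ± 0.35 for knockout and 5.41 ± 0.37 for wild type (SD, n = 3 each), with a difference of -0.89 (SE 0.25), which is 1.85-fold higher in wild type, or -0.67 without wild type 6. Its second probe set read 4.58, 5.09 and 4.73 in the knockouts and 4.67, 5.04 and 5.14 in wild type, overlapping throughout. That probe set differed by -0.15 (SE 0.19), or by -0.053 without wild type 6, its highest array.

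The other cytokine receptor chains, kinases and STATs of these cells gave 14 measured genes of 15. Their median was -0.23 with 10 below 0, and -0.054 without wild type 6, and limma called 0 of them, with 0 at an unadjusted p under 0.05. The interleukin-7 receptor gene Il7r, outside the rule for named genes and chosen after its values were seen, read 4.25 to 4.60 in the knockouts, 4.77 and 4.76 in wild types 4 and 5 and 6.94 in wild type 6. Il15ra, which presents interleukin-15, differed by 0.16 (SE 0.21, limma adjusted p = 0.991). Jak3 and Stat5a, which relay these cytokines, differed by 0.53 (SE 0.23) and 0.55 (SE 0.25), the opposite direction to Il2rb (limma adjusted p = 0.991 for each). They lay at the 53.1 and 76.8 percentiles of the arrays, and Il2rb at the 43.0 percentile. Which cells of this unsorted epithelium gave these values was not tested, here and for the other listed genes.

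**Figure D3:**
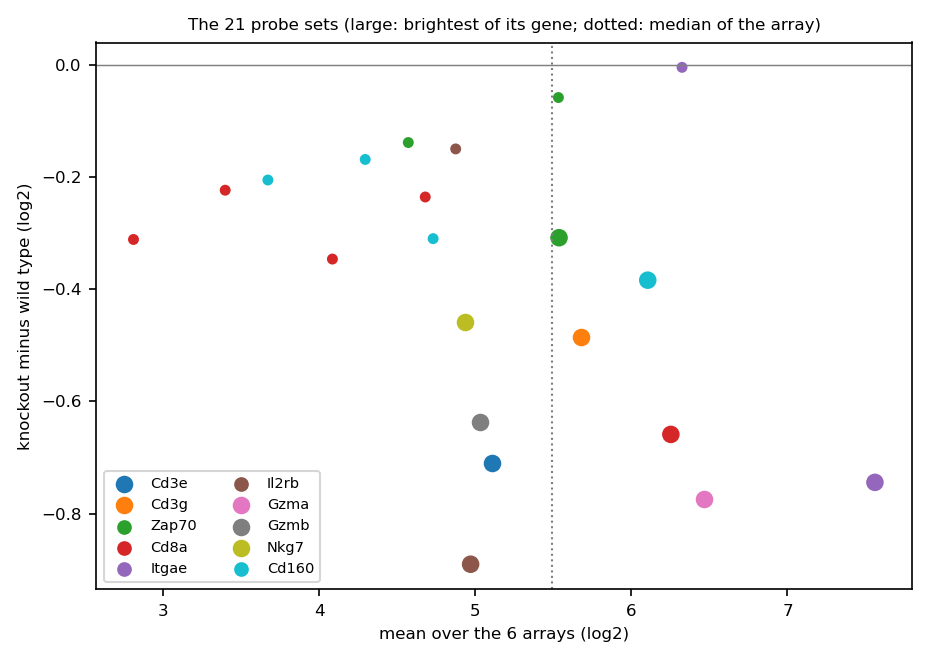
Knockout-minus-wild-type difference (log2) of all 21 probe sets against their mean over the 6 arrays (log2), coloured by gene; large points are the brightest probe set of each gene and the dotted line is the median of all probe sets. The second Itgae probe set lies at -0.0047 and the second Il2rb probe set at -0.15, near 0 beside the large points of the same genes at -0.74 and -0.89.

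Granule and effector genes made up the rest. Gzma and Gzmb encode granzymes, serine proteases delivered into target cells, and Nkg7 encodes a membrane protein of the same granules. Their promoter windows are shown because each held the RUNX motif, which 14% of all windows held. Of the 11 windows found for 8 of the 10 genes, 6 held it (from Cd160, Gzma, Gzmb, Nkg7 and Zap70). The motif was chosen with these sequences in view, so nothing is read from the difference.
Gzma (chr13:113100982-113101231, minus strand): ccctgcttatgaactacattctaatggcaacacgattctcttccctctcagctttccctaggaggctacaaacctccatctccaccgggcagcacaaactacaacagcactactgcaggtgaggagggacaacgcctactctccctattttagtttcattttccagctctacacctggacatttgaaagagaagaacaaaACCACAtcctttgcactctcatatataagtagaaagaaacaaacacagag
Gzmb (chr14:56262335-56262584, minus strand): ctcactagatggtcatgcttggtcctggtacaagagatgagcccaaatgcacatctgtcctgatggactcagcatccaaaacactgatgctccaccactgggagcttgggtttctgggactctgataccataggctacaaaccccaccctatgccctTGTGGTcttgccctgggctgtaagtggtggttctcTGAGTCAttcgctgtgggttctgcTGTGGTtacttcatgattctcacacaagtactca
Nkg7 (chr7:43436888-43437137, plus strand): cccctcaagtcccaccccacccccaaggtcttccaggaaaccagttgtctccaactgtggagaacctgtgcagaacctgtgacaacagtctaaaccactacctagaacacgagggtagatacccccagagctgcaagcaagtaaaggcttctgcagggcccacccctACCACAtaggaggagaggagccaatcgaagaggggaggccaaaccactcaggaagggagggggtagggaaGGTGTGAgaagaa
The RUNX match began 50 bases before the start site in Gzma and 83 in Nkg7, both on the minus strand, and 93 and 34 bases before it on the plus strand in Gzmb. Gzmb also held the AP-1 motif 58 bases before the start, found in 4.46% of all windows, and Nkg7 the T-box motif 13 bases before it, found in 3.33%. Tbx21 and Runx3, which encode a T-box and a RUNX factor of cytotoxic lymphocytes, are given with the transcription factors.

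Gzma read 5.90, 4.72 and 7.61 in the knockouts and 6.39, 7.14 and 7.02 in wild type. The knockouts enclosed the wild types: knockout 3 was the highest array of all and knockout 2 the lowest, a range of 2.89 within 1 genotype. Group means were 6.08 ± 1.45 for knockout and 6.85 ± 0.40 for wild type (SD, n = 3 each), with a difference of -0.77 (SE 0.68), which was -0.10 without knockout 2, -1.54 without knockout 3 and -0.69 without wild type 6.

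Gzmb read 4.32, 4.34 and 5.48 in the knockouts and 5.08, 5.92 and 5.06 in wild type. Knockouts 1 and 2 lay below all wild types, and knockout 3 lay above 2 of them. The difference was -0.64 (SE 0.38), and it ran from -1.02 without knockout 3 to -0.35 without wild type 5, with -0.78 without wild type 6. Neither granzyme gene was highest in wild type 6.

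Nkg7 read 4.82, 4.61 and 4.67 in the knockouts and 5.12, 5.42 and 4.94 in wild type. All knockouts were below all wild types by a gap of 0.12, and wild type 6 was the lowest of the wild types. Group means were 4.70 ± 0.11 for knockout and 5.16 ± 0.24 for wild type (SD, n = 3 each), with a difference of -0.46 (SE 0.16), or -0.57 without wild type 6.

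Cd160 encodes a receptor of cytotoxic lymphocytes that binds the epithelial protein HVEM. It read 6.06, 5.58 and 6.10 in the knockouts and 5.87, 6.31 and 6.71 in wild type. Wild type 4 lay below knockouts 1 and 3, so the groups overlapped. The difference was -0.38 (SE 0.25), or -0.18 without wild type 6. The other 3 Cd160 probe sets differed by -0.31, -0.17 and -0.21, and by 0.03, 0.0082 and 0.11 without wild type 6, which was the highest array for each.

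Counted over probe sets, 4 of the 21 had all knockouts below all wild types, where 2144 of all 45037 (4.76%) did. The count was no higher than over the genes, since the further probe sets of Itgae, Il2rb and Zap70 overlapped.

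**Figure D4:**
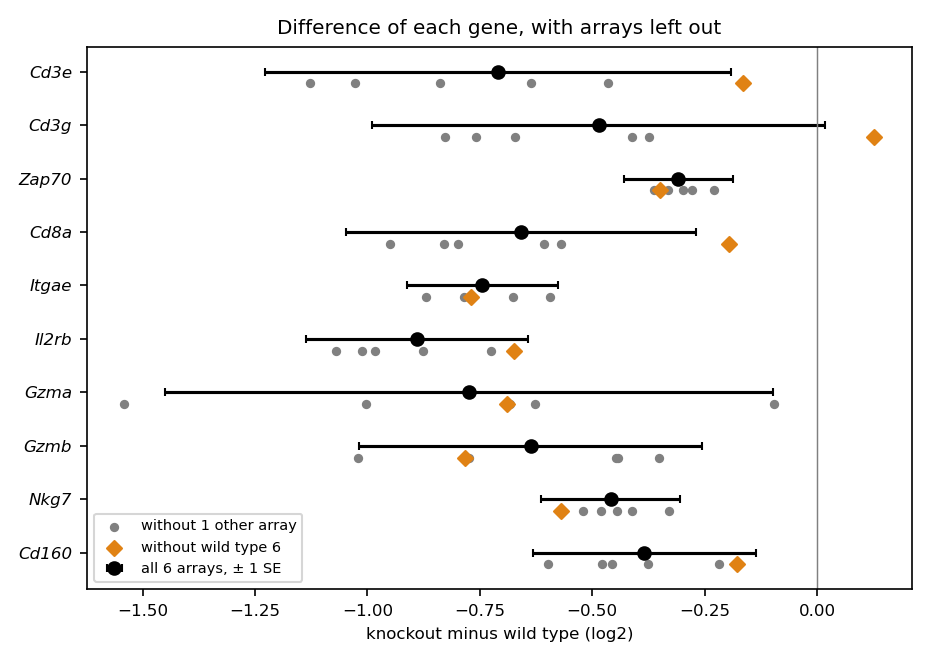
Difference of each gene (knockout minus wild type, log2) in all 6 arrays (black, bars are 1 standard error either side) and with each array left out (grey; orange diamond without wild type 6). Cd3g crosses 0 without wild type 6 (0.13), Gzma spans -1.54 to -0.10, and Zap70 spans a range of -0.36 to -0.23.

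The other genes of the cytotoxic machinery differed in both directions. All 26 listed granzyme, perforin and effector genes were measured, with 16 below 0 and a median of -0.10, or -0.038 without wild type 6. limma called 0, and at an unadjusted p under 0.05 there was 1 lower (Serpinb6b, -0.84, SE 0.35, and -0.44 without wild type 6) and 1 higher (Unc13d, 0.56, SE 0.23), each with limma adjusted p = 0.991. Prf1, which encodes perforin, the pore former of the same granules as the granzymes, lay between 8.22 and 8.35 among the knockouts and between 8.24 and 8.38 among the wild types, differing by -0.055 (95% interval -0.32 to 0.21, limma adjusted p = 0.991). Ccl5, a chemokine stored by cytotoxic T cells, followed the array order of Gzma in the knockouts, at 8.39, 7.52 and 9.06, against 8.89, 9.58 and 8.90 in wild type (difference -0.80, SE 0.40, limma adjusted p = 0.991). Without knockout 2 the Ccl5 difference was -0.40.

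Receptors of natural killer type gave 23 measured genes of 31, with 18 below 0, a median of -0.12 and -0.072 without wild type 6. limma called 0, and 1 was lower at an unadjusted p under 0.05. That gene, the inhibitory receptor Klrg1, lay between 4.66 and 4.91 in the knockouts and between 5.10 and 5.51 in the wild types without overlap (difference -0.42, SE 0.16, limma adjusted p = 0.991). Klrk1 and Klrd1, which encode NKG2D and CD94, differed by -0.34 (SE 0.21) and -0.36 (SE 0.42), with overlapping groups. Without wild type 6 they parted, with Klrk1 at -0.48 and all knockouts lower, and Klrd1 at -0.072 and still overlapping. The level of this list in wild type 6 was -0.042, inside the range of the other arrays, which ran from -0.14 to 0.02.

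Transcription factors of these cells gave 14 measured genes of 17, with 8 below 0, a median of -0.094 and -0.10 without wild type 6, and 0 calls by limma. Tbx21, encoding T-bet, read 4.58, 4.59 and 5.24 in the knockouts and 5.29, 5.26 and 5.29 in wild type. The wild types were alike, knockout 3 came within 0.02 of them, and knockouts 1 and 2 were low, the array order of Gzmb in the knockouts (difference -0.47, SE 0.19, limma adjusted p = 0.991, the 1 factor lower at an unadjusted p under 0.05). Runx3 differed by -0.17 (SE 0.13, limma adjusted p = 0.991). Ets1 and Ikzf3, which B cells express too, read 9.08 and 10.25 in wild type 6 and at most 6.05 and 6.55 elsewhere.

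The 7 lists together held 119 measured genes of 147 beside the 10. Their median difference was -0.20 with 88 below 0, beside 8701 of all 18193 genes. When wild type 6 was left out it was -0.058 with 76 below 0, beside 10032 of all 18193. limma called 0 of the 119. At an unadjusted p under 0.05 there were 3 lower and 1 higher, beside 1.77% and 2.41% of all genes. All knockouts were below all wild types in 13 of the 119, beside 4.83% of all genes. The lists were chosen with earlier results of these data known, so nothing is read from this count. Counts for markers of other cell types are given below. Wild type 6 was the highest array for 60 of the 119, beside 2333 of all 18193.

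**Figure D5:**
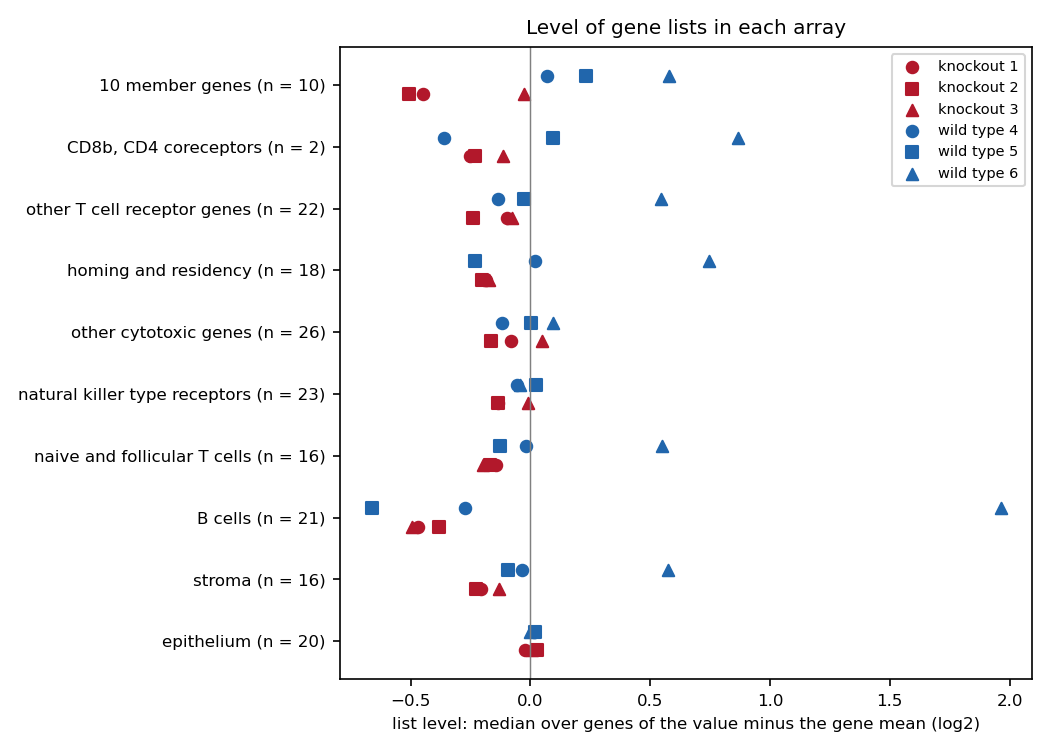
Level of each gene list in each array, taken as the median, across its genes, of values with each gene's 6-array mean subtracted (log2); the vertical line is 0 and n is the number of measured genes. Wild type 6 lies far right for B cells (1.96), the CD8b and CD4 coreceptors (0.87) and homing genes (0.75), while the epithelial list stays between -0.023 and 0.03 in all 6 arrays.

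Other cells can come off with the epithelium, and among them T cells of lymphoid follicles carry some of the 10 genes. Wild type 6 held most of the highest marker values for some of these other cell types and not for others. B cell markers, 21 of 24 measured, had a median difference of -1.12 with 19 below 0, and of -0.060 without wild type 6, which was highest for 19 of them. Ms4a1, which encodes CD20, read 8.55 in wild type 6, where the other arrays lay between 3.65 and 4.13. Markers of naive and follicular T cells, 16 of 18 measured, had a level of 0.55 in wild type 6 and -0.20 to -0.02 elsewhere, with a median difference of -0.25, or -0.063 without it. Ccr7, the lymph node homing receptor of naive T cells, read 6.45 in wild type 6 and 2.69 to 3.42 elsewhere. Markers of stroma (16 measured) had a level of 0.58 in wild type 6 and -0.23 to -0.03 elsewhere. Their median difference of -0.43 was still -0.22 without wild type 6, with 13 of 16 below 0, beside 10032 of all 18193 genes. Wild type 6 was highest for 6 of 11 plasma cell markers (median -0.31, or -0.15 without it), 9 of 17 myeloid markers (-0.13, or 0.017) and 1 of 11 mast cell markers (-0.086, or -0.094). limma called 0 in each of these lists. All knockouts were below all wild types in 4 of 16 stroma, 4 of 16 naive and follicular T cell and 3 of 21 B cell markers. The same order was seen in 2 of 17 myeloid, 1 of 11 plasma cell and 0 of 11 mast cell markers, beside 4.83% of all genes. At an unadjusted p under 0.05, genes of the B cell (1 of 21, Cxcl13), T cell (2 of 16), stroma (3 of 16) and myeloid (3 of 17) lists were lower, beside 1.77% of all genes. Of the myeloid and mast cell lists, 1 gene each was higher, beside 2.41% of all genes. The deposited scale has no 0, and the lowest value in the table was 1.78, so no marker can be called absent. The part of any of these cells, B cells and stroma included, in the values of the 10 genes was not tested.

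The genes with the smallest unadjusted p of the T cell and B cell lists were Cxcr5 and Cxcl13. Cxcr5, the receptor that brings lymphocytes to follicles, lay between 3.49 and 3.59 in the knockouts and at 5.09, 3.87 and 5.46 in wild type (difference -1.27, SE 0.38, limma adjusted p = 0.991), and -0.94 without wild type 6. Its ligand gene Cxcl13 differed by -1.14 (SE 0.33, limma adjusted p = 0.991). Without wild type 6 it differed by -0.99, where the median of the B cell list was -0.060. Cxcl13 encodes a ligand, and which cells gave its signal was not tested. The groups did not overlap for either gene.

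The epithelial side of the exchange was read from genes whose products act on these lymphocytes, 21 of 34 measured. Their median difference was 0.090 with 9 below 0, limma called 0, and the median was -0.013 without wild type 5 and -0.0065 without knockout 3. Cdh1, encoding the E-cadherin that CD103 binds, lay between 12.31 and 12.45 among the knockouts and between 12.28 and 12.32 among the wild types (difference 0.10, 95% interval -0.16 to 0.35, limma adjusted p = 0.991). Tnfrsf14, encoding the HVEM that CD160 binds, differed by 0.10 (SE 0.18, limma adjusted p = 0.991) and by 0.22 without wild type 6.

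Il15, the cytokine read through Il2rb, read 5.57, 5.72 and 5.50 in the knockouts and 6.28, 6.43 and 4.79 in wild type. Wild types 4 and 5 exceeded every knockout and wild type 6 was the lowest array, the reverse of its place for Cd3e. The difference of -0.24 (SE 0.42, limma adjusted p = 0.991) was -0.76 without wild type 6. Ccl25, the ligand of Ccr9, differed by -0.20 (SE 0.32, limma adjusted p = 0.991) and by -0.52 without it. Ulbp1, a ligand of NKG2D, was the 1 gene of the list at an unadjusted p under 0.05, with knockouts between 6.57 and 6.90 and wild types between 6.11 and 6.36 (difference 0.42, SE 0.14, limma adjusted p = 0.991).

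Across the 6 arrays the average of the 10 genes, each minus its own mean, was -0.43, -0.59 and 0.12 in knockouts 1, 2 and 3 and 0.05, 0.20 and 0.66 in wild types 4, 5 and 6. Knockout 3 thus lay above wild type 4, and the groups overlapped. The mean absolute gap to this profile over the 6 arrays was taken for 18183 other genes. Predicted genes, such as those with Gm or Rik symbols, were then left out of the ranking. The 10 nearest of the rest were Map4k1 (0.0985), Igfbp4 (0.104), Emid1 (0.107), Rnf144a (0.115), Sh3bp5 (0.116), Cavin2 (0.118), Apbb1ip (0.122), Lix1 (0.125), Sema4d (0.128) and Cmtm7 (0.132). A gene with the same value in all arrays would have a gap of 0.342, and the median other gene had 0.38. All 10 nearest genes were highest in wild type 6, as was the average they were picked to match, so nothing is read from this. Of these 10, 0 belonged to the gene lists used here.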

How the data were processed

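Expression was read on Affymetrix Mouse Genome 430 2.0 arrays in 6 pools of mouse colon epithelium. The authors summarised each array with RMA, per the submitters' processing notes (no version given), and deposited log2 values, a scale taken here from their range of 1.78 to 14.42. No scanner file or detection call was used, so scan batches were not tested. No cut was made on dim signals, although 13 of the 21 probe sets lay below the median of the array.

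Of 45101 probe sets, 64 array controls were left out. In the platform annotation 34958 had 1 symbol, 932 several and 9211 were unnamed. Both genotypes were compared over all 45037 probe sets in R 4.3.3 by limma 3.58.1 (lmFit, then eBayes; two-sided; Benjamini-Hochberg adjustment; threshold 0.05), which was also tested on simulated data. Lists are described by counts and medians of each gene's brightest probe set. P-values measure the spread between pools, and the number of arrays, 3 per group, limits the precision.

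The genes and the lists were chosen with earlier results of these data known. Named genes were all 10 genes with their probe sets, Bcl9 and Bcl9l, genes set by role, up to 4 genes of each list with the smallest unadjusted p, and the 10 nearest profiles; those bearing on the 10 genes are given. Alternatives were cyclic loess, scaling on epithelial markers, brighter probe sets, averaged probe sets, no _x_at or _s_at probe sets, robust estimation with an intensity trend, weights per array and leaving out each array. Promoter windows were the 250 bases before the RefSeq start site.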

Additional observations from a re-analysis of the deposited data

How the results depend on the processing

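The median difference of the 10 genes was -0.65 and stayed below 0 under every alternative run, from -0.83 without knockout 3 to -0.43 without knockout 2 when 1 array was left out, and -0.39 with array weights, where wild type 6 had the lowest weight (0.50, others 0.88 to 1.60). The other scalings left it at -0.64 (cyclic loess) and -0.61 (epithelial markers). The genes were chosen on this contrast in these arrays, so nothing is read from the median staying below 0. The counts of genes below 0 and of genes with all knockouts lower were added after the data were seen. With only probe sets above the median, 6 of the 10 genes were left, all 6 below 0 and 2 with all knockouts lower. Without _x_at and _s_at probe sets, 2 of 10 had all knockouts lower, against 4 in the main setting. Leaving out 1 array cannot lower this count, and it gave 4 to 8, the latter without knockout 3. With 1 array left out, limma called 0 to 3 probe sets (3 without wild type 6), the median of the other intraepithelial lymphocyte genes ran from -0.24 (without wild type 4) to -0.058 (without wild type 6), that of B cell markers from -1.29 to -0.060 (the same arrays) and that of the epithelial partner genes from -0.013 (without wild type 5) to 0.14 (without knockout 1). Single genes of the 10 gave 116 values, of which 5 moved by more than the spread between replicates and 1 changed sign; Itgae was -0.0047 and Zap70 -0.058 without _x_at and _s_at probe sets. Other named genes gave 1009 values, with 9 moved and 16 changes of sign. The causes were not tested. No paired analysis was possible because the 2 groups share no replicate number.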
